A study of Caenorhabditis elegans with 2 samples.

Results

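The genes described here encode the cytosolic and endoplasmic reticulum (ER) Hsp70 and Hsp90 chaperones of Caenorhabditis elegans and the Hsp70-related protein HSP-110. They are hsp-1, hsp-110, F44E5.4, F44E5.5, hsp-70, hsp-90, hsp-3, hsp-4 and enpl-1, which are 9 of the 19973 nuclear protein-coding genes in the annotation. They were chosen by name, with earlier results of these data known. Peaks were looked up within 500 bp and 2 kb of their transcription start sites (TSSs). The data are peak lists from transcription factor ChIP-seq, which maps where a protein sits on DNA, of the product of C06A6.2. Whole young adults of strain OP810, aged 67 hours and synchronised as starved L1 larvae after bleaching, made up 2 biological replicates of a single group. Every animal carried the transgene wgIs810, in which C06A6.2 is joined to TY1, EGFP and 3xFLAG and which also holds unc-119(+), in the unc-119(tm4063) background. An antibody to GFP was used for the immunoprecipitation, so the tagged copy was measured and not the native protein. The labels do not state which promoter drives the tagged gene or in which cells it is made, and peaks from whole worms do not show the cells they come from. No untagged strain and no second condition was analysed here, so the comparisons are between genes, positions and replicates.

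Hsp70 proteins bind short hydrophobic stretches of unfolded polypeptides in a cycle driven by ATP. J-domain proteins deliver clients to them and start ATP hydrolysis, and nucleotide exchange factors such as Hsp110 reset the cycle. Hsp90 acts later, on clients that are close to their native form, and the ER has its own Hsp70 and Hsp90 proteins for secreted and membrane proteins. Cytosolic members are classical targets of heat shock factor, which binds inverted repeats of the unit nGAAn called heat shock elements, and the ER members are classical targets of the unfolded protein response.

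The 7 genes with a peak in the list thresholded on both replicates (the conservative list, 1346 peaks) share 6 peaks, because F44E5.4 and F44E5.5 are divergently transcribed from a single promoter. The sequence around each of the 6 summits is shown so that the position of heat shock element words and ER stress words can be read against the summit. Each runs 5′ to 3′ on the strand of the gene (the strand of F44E5.5 for the shared promoter), covers 100 bases on either side of the summit, which is base 101, and stops short at the first annotated UTR or coding base. Capitals mark words searched on either strand. These were GAANNTTC and TTCNNGAA, each a pair of heat shock units and free to overlap, the ER stress word CCACG and a further one, TGACGT. The others were the TATA word TATAAA, the repeat word GAGAGA, and lastly ACGCAG. The letters are from the RefSeq genome sequence of WBcel235, the assembly that ce11 names, at chrIV:17278471-17278671 (plus strand) for hsp-1, chrIII:8447054-8447254 (minus) for hsp-110, chrII:11759368-11759568 (plus) for the shared promoter, chrV:14685669-14685869 (plus) for hsp-90, chrX:6092125-6092254 (minus) for hsp-3 and chrIV:11119148-11119297 (plus) for enpl-1.
hsp-1: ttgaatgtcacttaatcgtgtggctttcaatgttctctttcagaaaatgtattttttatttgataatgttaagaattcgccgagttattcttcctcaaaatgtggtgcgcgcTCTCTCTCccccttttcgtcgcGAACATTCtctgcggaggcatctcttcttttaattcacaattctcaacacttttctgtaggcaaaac
hsp-110: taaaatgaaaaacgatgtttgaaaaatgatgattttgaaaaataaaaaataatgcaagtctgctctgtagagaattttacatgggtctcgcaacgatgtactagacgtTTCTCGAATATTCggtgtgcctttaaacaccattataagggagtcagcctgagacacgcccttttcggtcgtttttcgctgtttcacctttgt
F44E5.4/F44E5.5: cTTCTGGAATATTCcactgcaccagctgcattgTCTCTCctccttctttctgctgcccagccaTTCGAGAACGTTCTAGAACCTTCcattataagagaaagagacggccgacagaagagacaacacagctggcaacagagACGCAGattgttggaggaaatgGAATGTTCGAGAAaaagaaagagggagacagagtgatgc
hsp-90: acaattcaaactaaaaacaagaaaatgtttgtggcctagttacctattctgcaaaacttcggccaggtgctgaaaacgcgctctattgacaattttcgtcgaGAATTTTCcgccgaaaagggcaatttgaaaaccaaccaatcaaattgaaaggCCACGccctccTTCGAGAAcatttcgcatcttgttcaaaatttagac
hsp-3: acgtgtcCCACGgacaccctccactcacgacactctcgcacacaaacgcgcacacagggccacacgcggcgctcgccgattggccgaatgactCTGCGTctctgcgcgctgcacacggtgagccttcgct
enpl-1: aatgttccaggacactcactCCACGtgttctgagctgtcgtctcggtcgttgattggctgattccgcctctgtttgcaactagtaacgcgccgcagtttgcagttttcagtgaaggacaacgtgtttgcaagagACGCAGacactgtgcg
The shared F44E5.4 and F44E5.5 promoter and hsp-110 show runs of overlapping heat shock words close to the summit. The hsp-3 and enpl-1 sequences show no such word. Each holds CCACG, which the hsp-90 sequence also holds beside its heat shock words.

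At the 500 bp window, 7 of the 9 genes had a conservative summit, which is 77.8% (95% Wilson interval 45.3 to 93.7), while 3.27% of all protein-coding genes had one. Widening the window to 2 kb added no further gene (7 of 9, against 6.45% of all genes). Each replicate's own thresholded list, called without the other replicate, held a summit at the same 7 genes. In these lists the share of all genes was 2.02% in replicate 1 and 2.32% in replicate 2. The peak itself was present in both own lists for all 7, a condition that 1.51% of all genes met. The ranked lists, which hold every candidate peak before thresholding, had a summit at 9 of 9 genes for both replicates together, 8 of 9 in replicate 1 and 9 of 9 in replicate 2. Since 33.6%, 35.3% and 33.1% of all genes have a ranked summit in these respective lists, a ranked summit alone is not read as a result here. Genes without a thresholded summit were hsp-70 and hsp-4.

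The 6 member peaks lay high in the conservative list, which is ordered here by the deposited signal, the peak caller's enrichment value in column 7. Their median signal was 203, against 87.4 over all 1346 peaks and 92.0 over the 577 peaks in promoters. The median percentile was 89.6, with a range from 80.3 for enpl-1 to 98.1 for the shared F44E5.4 and F44E5.5 peak. In the own thresholded list of replicate 1 the median was 77.6 and enpl-1 was at rank 427 of 748, with a signal of 52.9 below that list's median of 55.9. In that of replicate 2 the median was 84.7 and enpl-1 stood at percentile 74.8. All 6 summits lay upstream of the nearest start of the gene, by 30 to 391 bp. Upstream summits were also the majority in the whole list, at 473 of 577 promoter peaks.

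**Figure D1:**
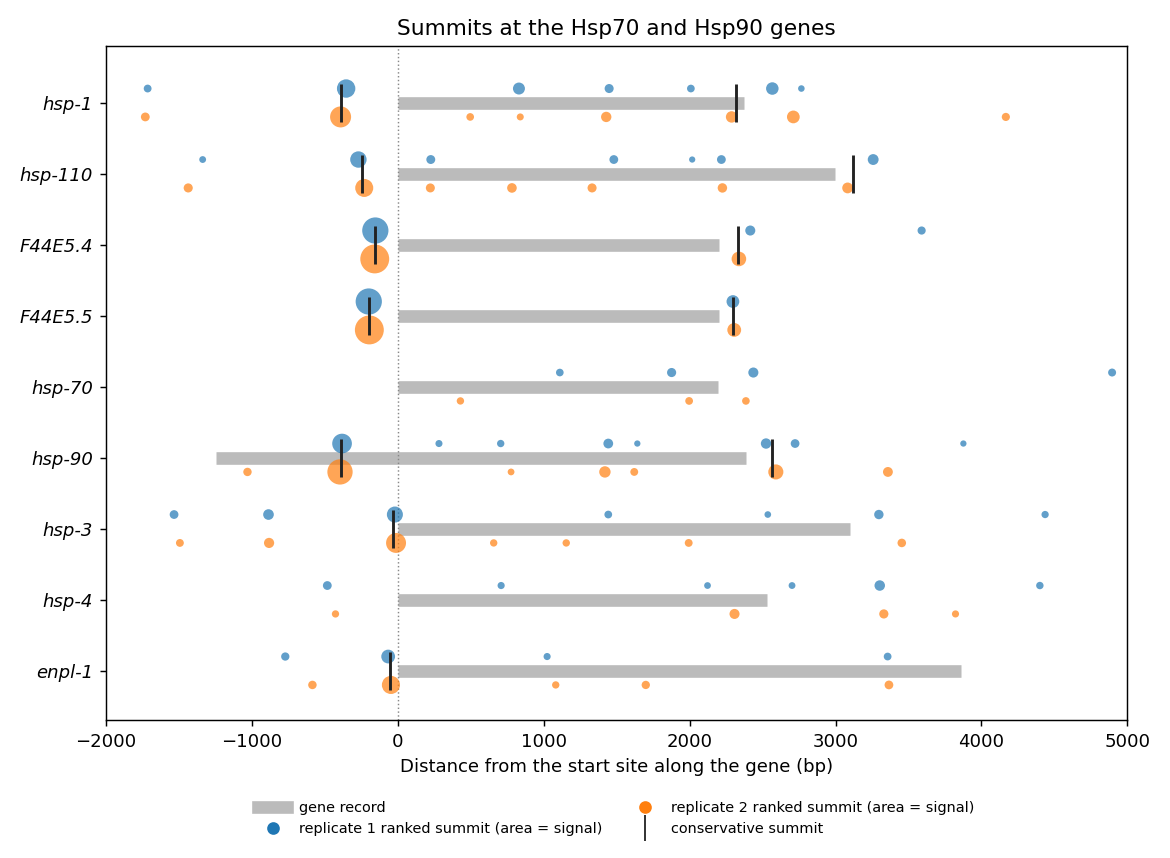
Summits in the replicates' ranked lists along each of the 9 genes, in bp from the start site (the downstream one of hsp-90), with dot area in proportion to the deposited signal and black ticks for conservative summits. The 7 genes with a tick near 0 carry their largest dots there in both replicates, 5 of them carry a second tick at the 3′ end, and no dot falls inside the F44E5.4 and F44E5.5 records.

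Among the cytosolic Hsp70 genes, the strongest peak was the one shared by F44E5.4 and F44E5.5 (WBGene00009691 on the minus strand at 11757107 to 11759311 and WBGene00009692 on the plus strand at 11759662 to 11761861 of chromosome II), which encode heat-inducible Hsp70 proteins. The peak spanned 11759316 to 11759628, within the intergenic stretch between them, with its summit 157 bp upstream of F44E5.4 and 194 bp upstream of F44E5.5. Its signal was 424 in the conservative list, rank 26 of 1346. Replicate 1 gave a signal of 192 and rank 29 of its 31655 ranked peaks, and replicate 2 gave 233 and rank 33 of 28508. The replicates placed the summit 4 bp apart, the closest of the 6 member peaks. A single peak cannot say whether the occupancy belongs to one gene of the pair or to both.

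hsp-1 (WBGene00002005, chromosome IV, 17278959 to 17281330, plus strand) encodes the constitutive cytosolic Hsp70. Its peak at 17278509 to 17278682 had a signal of 221 and rank 117, with the summit 388 bp upstream of the start. The signal was 94.5 (rank 146) in replicate 1 and 123 (rank 111) in replicate 2, with summits 38 bp apart. A non-coding RNA gene, F26D10.23, starts 158 bp from the same summit, nearer than hsp-1 itself.

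hsp-70 (WBGene00002026, chromosome I, 9320325 to 9322519, minus strand) encodes another heat-inducible cytosolic Hsp70, and it had no thresholded peak within 2 kb of its start. The nearest summit in the joint ranked list was 439 bp downstream of the start, inside the gene, with a signal of 30.2, rank 12463 of 36238 and an IDR score of 28 of 1000. In the joint lists the IDR score is the deposited measure of agreement in rank between replicates, higher where the rank is more repeatable. The lowest score in the conservative list was 830. An own list was called without the other replicate, so its score does not measure agreement between them. In replicate 1 the nearest ranked summit was 1111 bp downstream (signal 16.3), and in replicate 2 it was 430 bp downstream (signal 15.2, score 15). These signals are close to the medians of the ranked lists, 15.3 in replicate 1 and 16.9 in replicate 2. The coding sequence of hsp-70 is 80.3% identical to that of F44E5.4, and of the 9 genes these stood lowest and highest in joint signal within 500 bp.

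hsp-110 (WBGene00016250, chromosome III, 8443910 to 8446909, minus strand) encodes the Hsp110 protein that exchanges nucleotide on Hsp70. Its peak at 8447120 to 8447213, 94 bp wide, had a signal of 157 and rank 216, with the summit 245 bp upstream. Replicate 1 gave 75.0 (rank 212) and replicate 2 gave 90.6 (rank 213), so the rank was nearly equal in both. The summit lay nearer to 2 other starts, those of rpn-3, which encodes a proteasome regulatory subunit, at 199 bp, and of the non-coding RNA gene C30C11.14 at 59 bp.

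hsp-90 (WBGene00000915, chromosome V, 14684918 to 14688545, plus strand) encodes the cytosolic Hsp90. It has annotated starts at 14684918 and 14686160, and the peak at 14685662 to 14685857 lies between them. The summit was 391 bp upstream of the second start and 851 bp downstream of the first, in an intron of the longer transcript. The signal was 287, rank 73, and the replicates gave 108 (rank 115) and 178 (rank 61). Together with the F44E5.4 and F44E5.5 peak it was one of 2 member peaks among the 100 conservative peaks of highest signal. C47E8.4, on the other strand, starts 284 bp from the summit.

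In the ER group, hsp-3 (WBGene00002007, chromosome X, 6089028 to 6092124, minus strand) encodes a BiP protein, the Hsp70 of the ER. Its peak at 6091994 to 6092313 had a signal of 185 and rank 165, and the summit lay 30 bp upstream of the start, the shortest distance among the members. Replicate 1 gave 71.7 (rank 235) and replicate 2 gave 111 (rank 141), with summits 8 bp apart. No other annotated gene starts within 500 bp, so hsp-3 is the only one of the 6 peaks with a single gene to assign it to.

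enpl-1 (WBGene00011480, chromosome IV, 11119298 to 11123155, plus strand) encodes the ER Hsp90, known as GRP94 or endoplasmin in mammals. Its peak at 11119088 to 11119407 was the lowest of the 6, with a signal of 139 and rank 266, and the summit lay 50 bp upstream. The 2 replicates differed most here, with a signal of 52.9 (rank 451) in replicate 1 and 91.7 (rank 209) in replicate 2, a ratio of 1.73. imp-2, which encodes an intramembrane protease of the signal peptide peptidase family, starts 361 bp from the same summit.

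hsp-4 (WBGene00002008, chromosome II, 7350112 to 7352645, minus strand) encodes the second BiP protein and is the standard reporter of the unfolded protein response in worms. No thresholded summit lay within 2 kb of its start. The nearest joint ranked summit was 423 bp upstream with a signal of 43.6, rank 3818 and an IDR score of 80. In replicate 1 it was 482 bp upstream (signal 21.6, rank 5473), and in replicate 2 it was 426 bp upstream (signal 14.8, rank 18989). The coding sequences of hsp-3 and hsp-4 are 77.3% identical with no shared run longer than 25 bp, and every 50-letter word of either gene occurs once in the genome. Within this ER Hsp70 pair the joint signal was 185 at hsp-3 and 43.6 at hsp-4.

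The replicates gave the same order for the 3 strongest peaks and differed in level. In replicate 1 the order of signal was the F44E5.4 and F44E5.5 peak, hsp-90, hsp-1, hsp-110, hsp-3 and enpl-1. In replicate 2 it was the F44E5.4 and F44E5.5 peak, hsp-90, hsp-1, hsp-3, enpl-1 and hsp-110. Signal was higher in replicate 2 for all 6 peaks, by a median ratio of 1.42, with 1.21 at the F44E5.4 and F44E5.5 peak and at hsp-110, 1.30 at hsp-1, 1.55 at hsp-3 and 1.64 at hsp-90. The median over 1331 conservative peaks found in both ranked lists was 1.14, with quartiles of 0.939 and 1.37, so 3 of the 6 member ratios lay within the quartiles and 3 above them. How the signal was scaled is not stated in the sources, and with 2 replicates no test of this shift was made. Member summits were 4 to 40 bp apart between replicates, and the median over all peaks was 26.0 bp.

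**Figure D2:**
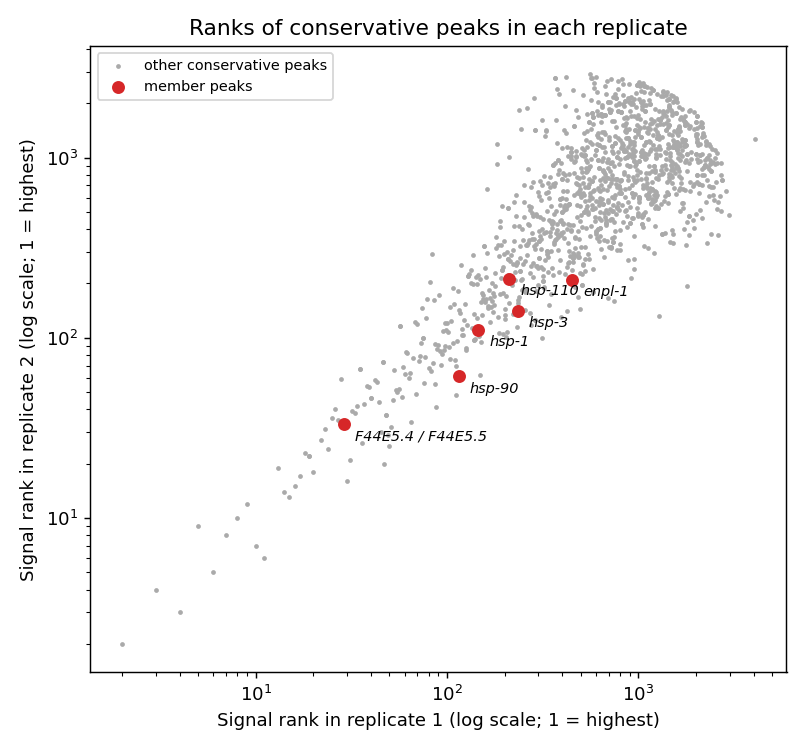
Signal rank of each conservative peak in replicate 1 (x axis) and replicate 2 (y axis), both on log scales with 1 the highest, with the 6 member peaks in red. The members run from ranks 29 and 33 for F44E5.4 and F44E5.5 to 451 and 209 for enpl-1, and all sit in the higher-signal part of the cloud.

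Heat shock element words were found at the cytosolic peaks and not at the ER peaks, those of hsp-3 and enpl-1. In the 301 bp centred on the summit, GAANNTTC or TTCNNGAA was present at 4 of the 6 member peaks (hsp-1, hsp-110, the F44E5.4 and F44E5.5 peak and hsp-90), while 23.4% of all conservative summits had either word. All 4 held a word within 50 bp of the summit, as did 8.62% of all conservative summits. The word nearest to the summit lay 2 bp away in hsp-90, 8 bp in hsp-110, 15 bp in the F44E5.4 and F44E5.5 promoter and 34 bp in hsp-1, as the capitals in the printed sequences show. Overlapping words are counted separately here: there were 14 at the F44E5.4 and F44E5.5 summit, 4 at hsp-110, 2 at hsp-90 and 1 at hsp-1. Taken alone, GAANNTTC was at 4 of 6 member summits (13.7% of all) and TTCNNGAA at 3 of 6 (13.4% of all). A triple heat shock element, made of 3 alternating units, was present at hsp-110 and at the F44E5.4 and F44E5.5 summit, and at 2.08% of all conservative summits.

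Promoters with a triple element were examined next. Promoter windows ran from 250 bp before to 50 bp after the start of each gene record, with a single window per gene. In these windows, 6 of the 9 members had a triple (hsp-1, hsp-110, F44E5.4, F44E5.5, hsp-70 and hsp-90), against 1.98% of all promoters. Of these 6, hsp-70 had no thresholded peak. Among the 389 other promoters with a triple, 21, or 5.40% (Wilson interval 3.56 to 8.11), had a conservative summit within 500 bp, against 3.27% of all genes. The 28 conservative summits with a triple in 301 bp had a median signal of 97.6, against 87.4 for all. Both hsp-1 and hsp-90 had a triple in the promoter window but none within the 301 bp around the summit. For hsp-90 the promoter window is at the first annotated start, and the summit lies 851 bp downstream of that start. Conversely, hsp-3 and enpl-1 had peaks without any heat shock element word in either window.

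The other words were likewise found at both cytosolic and ER genes, except TGACGT, which was found at ER genes only. CCACG was present within 301 bp of the summit at hsp-3, enpl-1 and hsp-90 (3 of 6, against 35.5% of all summits) and TGACGT at hsp-3 (1 of 6, against 165 of the 1346 summits). In promoters, CCACG was found at hsp-1, hsp-3, hsp-4 and enpl-1 (4 of 9, against 21.8% of all promoters) and TGACGT at hsp-3 and hsp-4 (2 of 9, against 10.4%). enpl-1 had TGACGT in neither window, and hsp-4 held both ER stress words without a thresholded peak. ACGCAG was at 3 of 6 member summits (the F44E5.4 and F44E5.5 peak, hsp-3 and enpl-1), where 26.1% of all summits had it. GAGAGA was at 4 of 6 (44.7% of all) and TATAAA at 2 of 6 (21.0% of all). The GC content of the central 101 bp ran from 41.6% at hsp-110 to 65.3% at hsp-3, around a median of 48.5% for all summits (quartiles 41.6 and 53.5). Only hsp-3 was above the upper quartile, and the other ER peak, enpl-1, was at 51.5%.

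**Figure D3:**
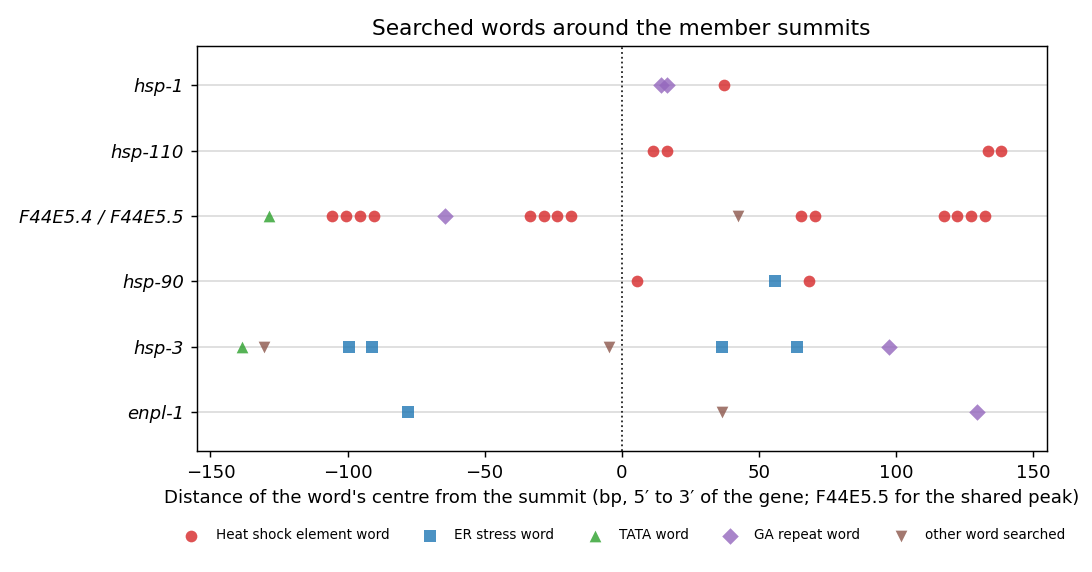
Distance in bp from the summit to the centre of each searched word, for the 6 member peaks, read 5′ to 3′ along the gene. Heat shock element words (red) fall near the summit of the 4 cytosolic peaks and are missing from hsp-3 and enpl-1. ER stress words (blue) appear at hsp-3, enpl-1 and hsp-90, and the remaining words at cytosolic and ER peaks.

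Several members also had a peak at the far end of the gene. A conservative summit lay within 500 bp of the annotated 3′ end of 5 of the 9 genes (hsp-1, hsp-110, F44E5.4, F44E5.5 and hsp-90), against 1.80% of all genes. In each of the 5 this was a separate peak from the promoter peak, 2491 to 3364 bp away. Among all 653 genes with a promoter summit, 9.34% had a separate summit at the 3′ end, against 5 of the 7 members. Among the 135 of these genes whose promoter signal was at least that of enpl-1 and whose length was no more than 3858 bp, that of enpl-1, the share was 14.1%. Peaks at both ends were also found at 1 of 6 other Hsp70-type and Hsp90-type genes, 1 of 19 co-chaperone genes and 1 of 13 ER folding genes, where 1, 6 and 6 genes respectively had a promoter peak. Cytosolic hsp-70 had no conservative peak at either end. These comparisons were chosen after the 3′ summits had been seen.

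The 3′ peaks were weaker than the promoter peaks of the same genes. At F44E5.5 the 3′ peak (11761799 to 11762118) had a signal of 98.5, rank 530, with 45.4 in replicate 1 and 53.2 in replicate 2, and it was the only one in both replicates' own thresholded lists. At F44E5.4 (11756816 to 11757135) the signal was 91.3, rank 622, with 28.2 and 59.3 in the replicates. hsp-90 (14688566 to 14688885) had 84.7, rank 707, with 30.1 and 63.5. These last 2 were thresholded in replicate 2 alone. The hsp-110 peak (8443630 to 8443949) had 62.8, rank 1146, with 32.9 and 32.5, and was in neither own list. The hsp-1 peak (17281120 to 17281439) was the weakest in the conservative list, at 41.5 and rank 1220, with 43.6 and 36.5. Its replicate 1 summit lay 196 bp beyond the 3′ end, while the conservative summit lay 50 bp inside it, in the 3′ UTR exon. The matched hsp-1 summits of the replicates were 279 bp apart. Replicate 2 also had a stronger ranked summit 340 bp beyond the hsp-1 3′ end, with a signal of 45.3, so the place of this peak differed between replicates. The promoter signal was 2.50 times the 3′ signal at hsp-110, 3.39 times at hsp-90, 4.31 times at F44E5.5, 4.65 times at F44E5.4 and 5.33 times at hsp-1.

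The count of genes with both peaks depended on the replicate. By each replicate's own thresholded list, it was 2 members in replicate 1 (hsp-1 and F44E5.5, against 5.71% of the 403 genes with a promoter summit there) and 3 in replicate 2 (F44E5.4, F44E5.5 and hsp-90, against 6.26% of 463). F44E5.5 was the gene that both lists held. Other gene starts lay close to some of the 3′ summits: C47E8.11 starts 110 bp from that of hsp-90, ufbp-1 183 bp from that of hsp-110, and the non-coding RNA gene F44E5.16 191 bp from that of F44E5.4. When summits within 500 bp of any protein-coding start were left out, hsp-1, F44E5.4 and F44E5.5 remained, 3 of 9, against 1.06% of all genes. As a share of genes with a promoter summit this was 3 of 7, against 5.36%. The other 4 genes had ranked summits at the 3′ end below the threshold, with signals of 49.3 at hsp-3, 39.7 at hsp-70, 36.9 at enpl-1 and 34.7 at hsp-4 in the joint list.

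**Figure D4:**
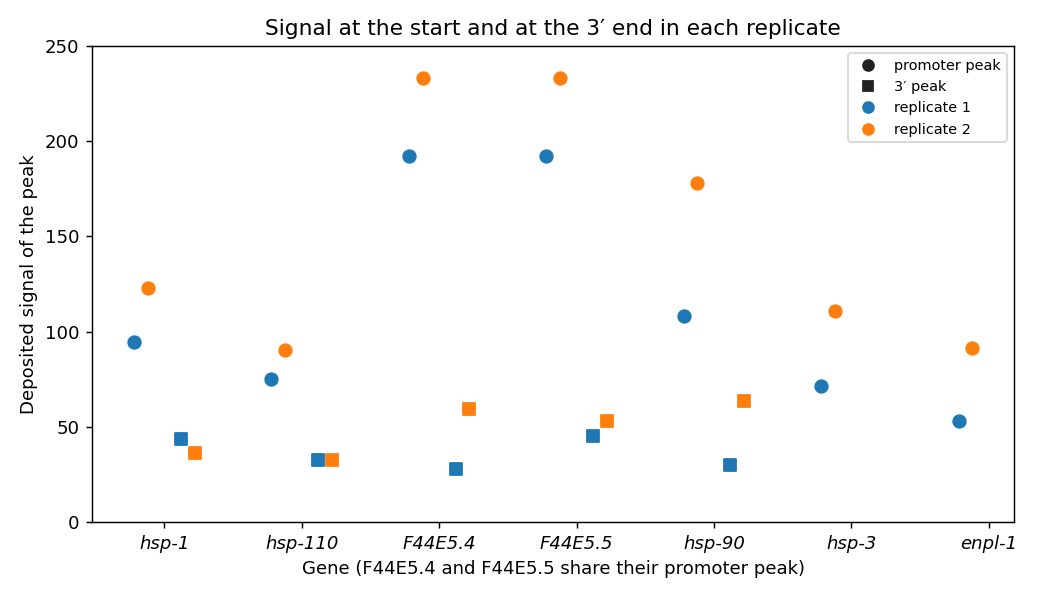
Deposited signal of the promoter peak (circles) and of the 3′ peak (squares) in replicates 1 and 2 for the 7 genes with a promoter peak. Every square is below the circles of its gene, and hsp-3 and enpl-1 have no 3′ peak in the conservative list.

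Between their 2 peaks the F44E5.4 and F44E5.5 records held no summit in any ranked list, unlike the other 7 genes, whose records held from 1 to 5 each. These counts take in every summit inside a record, among them the promoter peak of hsp-90 and the 3′ peak of hsp-1 in the joint list. The coding sequences of F44E5.4 and F44E5.5 are 100% identical over 1935 bp. Of the 50-letter words in these records, 1.86% of those of F44E5.4 and 2.09% of those of F44E5.5 occur once in the genome, against 99.4% for hsp-1 and 100% for the other members. Whether the authors kept reads that map to several places is not stated, and the part of this in the absence of summits was not tested. Every 50-letter word in the 320 bp around the promoter and 3′ summits of the members was unique.

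A second protein-coding gene starts within 500 bp of 4 of the 6 summits (the F44E5.4 and F44E5.5 pair itself, rpn-3 at hsp-110, C47E8.4 at hsp-90 and imp-2 at enpl-1), against 22.7% of the 577 promoter peaks in the list. In signal, the closest promoter peaks above and below were mog-4 (432) and rpl-15 with K11H12.8 (418) for the F44E5.4 and F44E5.5 peak, and epn-1 (295) and atx-2 (285) for hsp-90. For hsp-1 they were spe-48 with Y51F10.11 (223) and ddp-1 (221), and for hsp-3 F21C10.10 (186) and F20D12.12 with czw-1 (185). hsp-110 stood between nhr-47 with dnj-19 (157), the latter a J-domain protein gene, and ego-1 (157). enpl-1 stood between spcs-2 with mrg-1 (140), the former encoding a signal peptidase subunit, and Y75B12B.11 (139). These neighbours are alike in signal only.

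Promoter peaks were also found at other chaperone genes. Of 19 genes for Hsp70 and Hsp90 co-chaperones, 6 had a conservative summit within 500 bp (31.6%, Wilson interval 15.4 to 54.0). They were the J-domain genes dnj-13 (signal 197), dnj-19 (157), dnj-12 (78.2) and dnj-20 (58.4) and the BAG-domain genes bag-1 (137) and unc-23 (107). The dnj-13 signal was 76.6 in replicate 1 and 118 in replicate 2, close to that of hsp-3. dnj-20 was in neither own list, and dnj-12 was thresholded in replicate 1 alone. Of 13 ER folding and unfolded protein response genes, 6 had a peak (46.2%, 23.2 to 70.9), with lower signals: the calreticulin gene crt-1 (117), the disulphide isomerase genes pdi-6 (109) and pdi-2 (74.8), and the stress transcription factor genes xbp-1 (100), atf-6 (94.2) and atf-4 (72.5). All 6 fell below enpl-1, the lowest member. The atf-6 and atf-4 peaks were thresholded in replicate 2 alone, and that of pdi-2 was in neither own list.

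In the CCT chaperonin, the ring that folds actin and tubulin, 2 of 8 subunit genes had a peak (Wilson interval 7.15 to 59.1), cct-8 (360, with 160 and 198 in the replicates) and cct-1 (166). Among 6 other Hsp70-type and Hsp90-type genes only hsp-6, which encodes the mitochondrial Hsp70, had one (109, thresholded in replicate 2 alone; 16.7%, 3.01 to 56.4). None of 16 small heat shock genes had a promoter peak, which allows a share of up to 19.4%, and none of 4 heat shock regulator genes did (up to 49.0%). The interval for the 9 Hsp70 and Hsp90 genes, 45.3 to 93.7, overlaps those of all the other lists except the small heat shock genes. Whether the letters at the small heat shock genes occur once in the genome was not checked. The names hsp-16.1 and hsp-16.48 each cover a pair of gene records among the 16. With lists of this size no order among the overlapping groups can be read. The members and lists were chosen with earlier results known, and 2 of the 7 members with a summit share a peak, so the shares are a description.

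**Figure D5:**
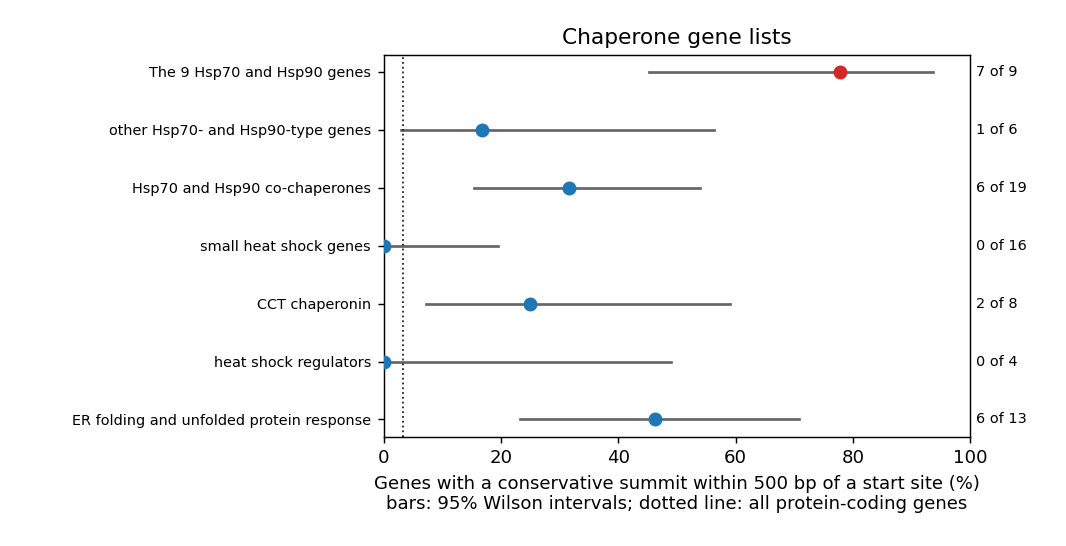
Share of genes with a conservative summit within 500 bp of a start site in 7 chaperone lists, with 95% Wilson intervals, which cover counting error only, and the 3.27% of all protein-coding genes as a dotted line. The 9 Hsp70 and Hsp90 genes have 7 of 9, on 6 peaks, the ER genes 6 of 13 and the small heat shock genes 0 of 16.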

How the data were processed

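The 2 samples are biological replicates of a single group. Peak lists are in ce11, per the labels; the aligner and peak caller are not named there, and depth is unknown because no read totals were used. The authors' deposited signal (column 7) was used to rank peaks within a list, and the deposited IDR score to describe the threshold. Of 2 joint ranked lists, the one with more replicate 1 intervals (67.7% against 5.63%) was used. Summits were set against 29314 starts of 19973 protein-coding genes (Ensembl release 115, WBcel235) with Python 3.11.15, pandas 2.3.3 and Biopython 1.88, after a check on planted summits. A peak was matched between lists by an overlap of at least 1 bp, taking the strongest. Words were searched on both strands. Shares carry 95% Wilson intervals (statsmodels 0.14.6), which cover counting error only. With no second group, no test was made and no p-value given. Genes named beyond the members were the nearest in signal and those of 6 chaperone lists. The members and lists were chosen with earlier results of these data known. The alternatives were another peak list, window, start set, threshold, overlap and each replicate alone.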

Additional observations from a re-analysis of the deposited data

How the results depend on the processing

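The 7 genes with a promoter summit were the same number in the optimal list (3.33% of all genes) and in each replicate's own list. They were also 7 among peaks above the median signal, which could not have differed, as the lowest member peak was at percentile 80.3. The count was 5 at 250 bp (hsp-1 and hsp-90 lost), against 2.08% of all genes, and 7 at 1000 bp, against 4.46%. It was 6 when gene record starts replaced transcript starts (hsp-90 lost), for which no share of all genes is given. In the joint ranked list it was 9, against 33.6% of all genes. With gene record starts the hsp-90 summit was 851 bp downstream in place of 391 bp upstream, since the peak lies between its annotated starts. The median percentile of the member peaks, 89.6, was 87.2 among promoter peaks only. Leaving out each replicate in turn, it was 99.4 to 99.6 in the ranked lists, which are far longer, and 77.6 to 84.7 in the own thresholded lists, where in replicate 1 hsp-3 was at 70.6 and enpl-1 at rank 427 of 748, below the median. The 5 genes with peaks at both ends became 2 to 3 with a replicate left out. At 250 bp there were 3, against 22 of all 416 genes with a promoter summit there. Among peaks above the median signal there were 2, against 22 of 398, and in the optimal list 4, against 62 of 666. These alternatives and the own thresholded lists for the percentile were chosen after seeing the data. Of the 63 other values, 25 moved little, 37 moved by more than the spread between replicates and 1 was reversed. No paired analysis was possible because there was a single group and no test. Depth is unknown, so an absent peak at hsp-70 or hsp-4 means none past the threshold here.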
